A study of Mus musculus with 6 samples.

Results

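The immunoproteasome and the peptide-loading machinery were followed through 9 gene symbols, Psmb8, Psmb9, Psmb10, Psme1, Psme2, Tap1, Tap2, Tapbp and Erap1, of which 8 matched a row of the deposited table of 23930 amplicons. The expression of Psme2 is not analysed here. The symbols were chosen by the difference in RPM between Stat3 KO and control libraries in these same data, so their levels and differences are given as a description, with no test, and support nothing. The samples were shafts of the humerus, an arm bone, from mice at E16.5, a late embryonic stage, with 3 Stat3 KO samples of genotype Prrx1Cre; Stat3C/C and 3 control samples of genotype Stat3C/+. The labels do not spell out Stat3C, which is read here as a conditional allele of the transcription factor gene Stat3 because it stands with a Cre driver, and both groups carry at least 1 copy of it. The labels also call the controls wild type, and their genotype names no Cre driver, so effects of the driver and of the deletion cannot be told apart. Prrx1Cre is active in limb bud mesenchyme, the source of bone, cartilage and connective tissue cells, and blood, endothelial and osteoclast lineages arise elsewhere. The question put by the series was which transcripts differ between the genotypes.

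Proteasomes are barrel-shaped proteases that cut cytosolic proteins into peptides. Interferon-gamma makes cells build a variant, the immunoproteasome, in which Psmb8, Psmb9 and Psmb10 take the places of the constitutive catalytic subunits Psmb5, Psmb6 and Psmb7. Psme1 and Psme2 form the PA28 ring that caps and activates the core. The peptides are pumped into the endoplasmic reticulum by the transporter made of Tap1 and Tap2, trimmed there by the aminopeptidase Erap1, and placed on major histocompatibility complex (MHC) class I molecules with the help of tapasin, encoded by Tapbp. Cells outside the immune system are known to hold little of this machinery at rest and to raise it under interferon.

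The genes share an arrangement in the genome as well as a pathway. In GENCODE M21 on GRCm38, matched by symbol, 5 of the 8 lie on chromosome 17 in the MHC. Psmb9 (chromosome 17, 34181987 to 34187764, minus strand), Tap1 (34187553 to 34197225), Psmb8 (34197721 to 34201454) and Tap2 (34203527 to 34216321) stand side by side, and Tapbp (33915899 to 33929292) is nearby. Psmb10 is on chromosome 8 (105935735 to 105938444), Psme1 on chromosome 14 (55578123 to 55581529) and Erap1 on chromosome 13 (74639568 to 74693201). The coordinates describe whole genes, and the place of each amplicon was not used here.

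Tap1 and Psmb9 are transcribed away from each other, and 225 bases separate their RefSeq starts. This stretch is shown because it lies upstream of both RefSeq starts, and both genes were higher in Stat3 KO. In GENCODE M21 Psmb9 starts further along, at 34187764, so there the stretch lies inside the Psmb9 gene. It is given on the plus strand of GRCm38.p6, chr17:34187331-34187555, with the only matches to the motifs searched, a CCAAT box and a GC box, in capitals:
Tap1 and Psmb9: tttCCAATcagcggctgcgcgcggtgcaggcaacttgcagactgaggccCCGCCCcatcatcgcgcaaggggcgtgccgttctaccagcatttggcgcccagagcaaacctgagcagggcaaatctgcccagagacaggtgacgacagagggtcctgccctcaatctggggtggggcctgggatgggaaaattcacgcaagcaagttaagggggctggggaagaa

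The windows from 250 bases before to 50 bases after the RefSeq start were searched on both strands for the core of the interferon-stimulated response element (ISRE, GAAA then any 2 bases then GAAA), the gamma-activated sequence bound by STAT factors (GAS, TTCNNNGAA), the CCAAT box (CCAAT) and the GC box (GGGCGG). RefSeq windows were matched for 8 of the 9 symbols, Psme2 included and Tap2 having none. The ISRE core was in the windows of 2 genes, Erap1 and Psme1, while 3.44% of all 32851 windows hold it. The GAS letters were in the window of 1 gene, Psmb8, and are in 8.30% of all windows. The CCAAT box was in 3 of the 8 (37.4% of all windows) and the GC box in 6 of the 8 (35.7%). The windows of Tap1 and Psmb9 overlap, and their CCAAT box and GC box are the same sites, counted for both genes. The 3 stretches with an interferon or STAT motif follow, each 30 bases on the plus strand of GRCm38.p6 with the match in capitals. They lie at chr17:34198087-34198116, chr13:74639839-74639868 and chr14:55578493-55578522.
Psmb8, GAS: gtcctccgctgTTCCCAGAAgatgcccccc
Erap1, ISRE core on the minus strand: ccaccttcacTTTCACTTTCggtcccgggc
Psme1, ISRE core on the minus strand: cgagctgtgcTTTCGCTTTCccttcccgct
A match describes letters only, and no binding was measured.

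Values are in RPM, the reads of an amplicon scaled to the total of its library. The Ion AmpliSeq panel reads each gene at 1 short target, so levels of different genes cannot be compared with each other. Depth was 9126493 to 13376550 reads per library. Bone was recognisable in both groups, with Col1a1 at 24756 to 29634 RPM in Stat3 KO and 26596 to 30725 RPM in control samples. In the test described below Runx2, Sp7, Alpl, Ibsp, Spp1 and Dmp1, 6 of 8 osteoblast markers, were called lower in Stat3 KO. This stands beside 11.0% of all tested amplicons, and Col1a1 was among the 2 not called. The Stat3 amplicon gave 208, 201 and 170 RPM in Stat3 KO and 211, 201 and 211 RPM in control replicates 1 to 3 (log2 difference -0.11, limma adjusted p = 0.380). Whether this target lies inside the deletion is not stated, so it checks nothing about the labels. Amplicons averaging 1 RPM or more, 12846 in number, entered the test, and limma called 2142 of them (16.7%) at an adjusted p under 0.05, 733 (5.71%) higher and 1409 (11.0%) lower in Stat3 KO. With TMM factors these numbers were 1041 and 928. The median of all tested amplicons was -0.06 on the log2 scale.

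All 8 measured genes had a higher mean in Stat3 KO bone. The ratios of the means were 2.68 to 2.96 for Psmb8, Psmb9 and Tap1 and 1.24 to 1.67 for Tap2, Psmb10 and Tapbp, while Psme1 and Erap1 had overlapping groups. For 6 of the 8 every Stat3 KO library lay above every control library, a pattern that 11.9% of all tested amplicons showed, with 33.8% not overlapping in either direction. Since the genes were picked on this contrast, nothing is read from their count. The median log2 difference of the 8 was 0.57, with a range of 0.19 to 1.40. These log2 differences are on the log2(RPM + 1) scale, which understates the change of low genes.

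**Figure D1:**
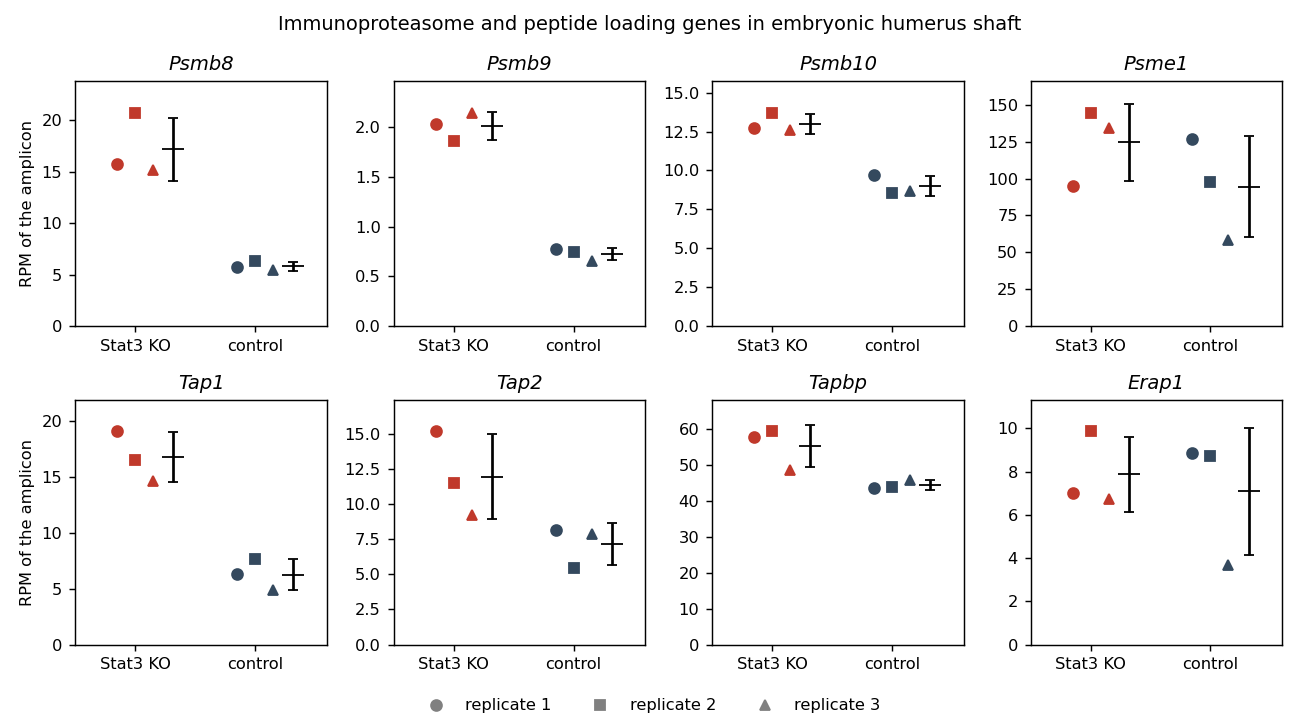
RPM of each amplicon (y axis, from 0) in the 3 Stat3 KO and the 3 control libraries, with the replicate number as the marker shape and the mean ± SD beside the points. Each panel has its own scale. Psmb8, with the largest ratio of the means, is at 15.1 to 20.7 RPM in Stat3 KO and 5.42 to 6.28 RPM in control libraries. Psme1 and Erap1 show overlapping groups with control replicate 3 lowest.

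The catalytic subunits had ratios of 1.45 to 2.96. Psmb8, whose product carries the chymotrypsin-like activity of the immunoproteasome, was at 15.8, 20.7 and 15.1 RPM in Stat3 KO replicates 1 to 3, against 5.76, 6.28 and 5.42 RPM in control replicates 1 to 3. The lowest Stat3 KO library was thus above the highest control library by a wide margin. The means were 17.2 ± 3.06 RPM in Stat3 KO and 5.82 ± 0.433 RPM in controls (SD, n = 3 each), a 2.96-fold ratio and a log2 difference of 1.40 ± 0.15 (SE).

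Psmb9, the partner that replaces Psmb6, rests on few reads. It was read 24, 17 and 21 times in the Stat3 KO libraries and 9, 10 and 8 times in the control libraries, which corresponds to 2.03, 1.86 and 2.15 RPM in Stat3 KO and 0.773, 0.748 and 0.657 RPM in controls. The groups did not overlap, and the ratio of the means was 2.77. With so few reads the log2 difference depended on the pseudocount, at 0.80 ± 0.22 (SE) with 1 RPM added, 1.36 with 0.1 RPM and 0.16 with 10 RPM. Its control mean of 0.726 RPM is under the 1 RPM limit, and it entered the fit through the Stat3 KO libraries.

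Psmb10, which replaces Psmb7, had the smallest ratio of the catalytic subunits. It was at 12.7, 13.7 and 12.6 RPM in Stat3 KO, against 9.71, 8.52 and 8.71 RPM in controls, with no overlap. The ratio of the means was 1.45 and the log2 difference 0.49 ± 0.14 (SE).

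The constitutive counterparts did not pass the test. Psmb6 averaged 137 ± 8.91 RPM in Stat3 KO and 160 ± 12.4 RPM in controls (SD, n = 3 each), with a log2 difference of -0.22 (limma adjusted p = 0.0720). Every Stat3 KO library lay below every control library, while 33.8% of all tested amplicons did not overlap in either direction. Without Stat3 KO replicate 3 Psmb6 was called lower, at -0.27 with an adjusted p of 0.0468. Psmb7 was at 389 ± 37.8 RPM in Stat3 KO and 402 ± 13.2 RPM in controls (log2 difference -0.05, adjusted p = 0.710). Psmb5 is not analysed here.

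The reads of 2 inducible subunits were also set against those of their counterparts within a library. Since Psmb9 and Psmb10 were picked for this contrast, the ratios largely restate that choice per library and add no separate evidence. There were 1.58, 1.37 and 1.47 Psmb9 reads per 100 Psmb6 reads in Stat3 KO, against 0.447, 0.504 and 0.415 in controls. For Psmb10 per 100 Psmb7 reads the values were 3.62, 3.51 and 2.95 in Stat3 KO and 2.37, 2.20 and 2.13 in controls. The first ratio averaged 1.47 ± 0.107 in Stat3 KO and 0.456 ± 0.0451 in controls, and the second 3.36 ± 0.360 in Stat3 KO and 2.23 ± 0.122 in controls (SD, n = 3 each). These ratios compare libraries only, since each amplicon has its own yield, and they give no share of subunits in the protein complex.

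**Figure D2:**
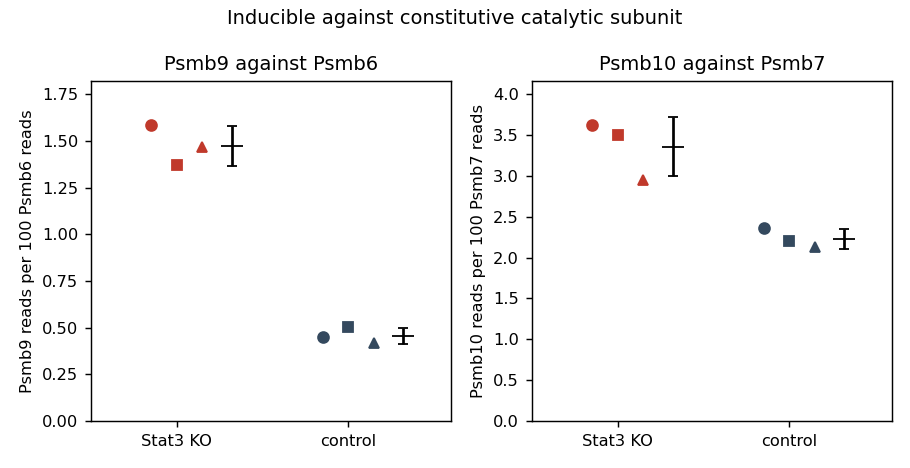
Reads of the inducible subunit per 100 reads of its constitutive counterpart (y axes, from 0) in each library, Psmb9 against Psmb6 on the left and Psmb10 against Psmb7 on the right, with mean ± SD beside the points. The Stat3 KO libraries lie at 1.37 to 1.58 and 2.95 to 3.62, above the controls at 0.415 to 0.504 and 2.13 to 2.37.

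Psme1, the alpha subunit of the PA28 ring, varied widely within both groups. It was at 95.1, 144 and 134 RPM in Stat3 KO and at 127, 97.9 and 58.6 RPM in controls. The groups overlapped, and the log2 difference was 0.44 ± 0.18 (SE). The highest control library was 2.17 times the lowest, a spread reached by only 2 of the 2806 tested amplicons within 2-fold of its mean, Psme1 included. The log2 difference was 0.14 without control replicate 3 and 0.69 without control replicate 1.

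Psme2b, an intronless copy of the beta subunit gene on chromosome 11, is named here after its values were seen. Its annotated transcript is identical to Psme2 at 789 of 794 aligned bases (99.4%), so reads of the pair may be shared. Psme2b was at 11.3, 9.97 and 10.8 RPM in Stat3 KO and 7.30, 8.45 and 7.23 RPM in controls, with no overlap (log2 difference 0.44 ± 0.15 SE, limma adjusted p = 0.0416). This call was lost when any 1 of the 6 libraries was left out, with adjusted p between 0.0625 (without control replicate 2) and 0.114 (without control replicate 1).

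The transporter genes both lay higher. Tap1 had 225, 151 and 143 reads in Stat3 KO, or 14.6 to 19.1 RPM, against 73, 102 and 59 reads in controls, or 6.27, 7.63 and 4.85 RPM. Every Stat3 KO library was well above every control library, with means of 16.7 ± 2.22 RPM in Stat3 KO and 6.25 ± 1.39 RPM in controls (SD, n = 3 each), a 2.68-fold ratio and a log2 difference of 1.30 ± 0.16 (SE). Its divergent neighbour Psmb9, with which it shares the stretch printed above, had a ratio of 2.77.

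Tap2, the other chain of the transporter, was at 15.2, 11.5 and 9.20 RPM in Stat3 KO, against 8.16, 5.46 and 7.88 RPM in controls. The lowest Stat3 KO library was only slightly above the highest control library. The ratio of the means was 1.67 and the log2 difference 0.66 ± 0.18 (SE).

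The genes of peptide loading and trimming had the smallest ratios. Tapbp, the tapasin gene that bridges the transporter to class I molecules, was at 57.9, 59.4 and 48.7 RPM in Stat3 KO, against 43.6, 43.9 and 46.0 RPM in controls. The groups did not overlap, and the means stood in a ratio of 1.24, a log2 difference of 0.30 ± 0.10 (SE). Erap1, the trimming enzyme, was at 7.03, 9.86 and 6.75 RPM in Stat3 KO and 8.85, 8.75 and 3.70 RPM in controls. These groups overlapped, the log2 difference was 0.19 ± 0.22 (SE), and without control replicate 3 it turned to -0.16. It was 0.04 without Stat3 KO replicate 2, 0.37 without control replicate 1 and 0.37 without control replicate 2. A control spread as wide as that of Erap1 (2.39 times) was reached by 14 of 3016 tested amplicons of like level, Erap1 included. Control replicate 3 was the lowest of all 6 libraries for both Psme1 and Erap1.

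The other genes of the pathway were taken from 11 lists of 107 symbols, 95 of them in the table and 87 tested. Of these 12 were called higher and 13 lower, or 13.8% and 14.9%, against 5.71% and 11.0% of all tested amplicons, and their median log2 difference was -0.02. With TMM factors 16 were higher and 10 lower. The number of lower genes was 7 without Stat3 KO replicate 2, 7 without control replicate 1 and 6 without control replicate 2. The 12 higher genes include H2-Q6 and H2-Q7, which averaged 0.411 and 0.686 RPM in controls. Both entered the fit through the Stat3 KO libraries, so nothing is read from the share of 13.8%. The lists were chosen with earlier results of these data known.

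**Figure D3:**
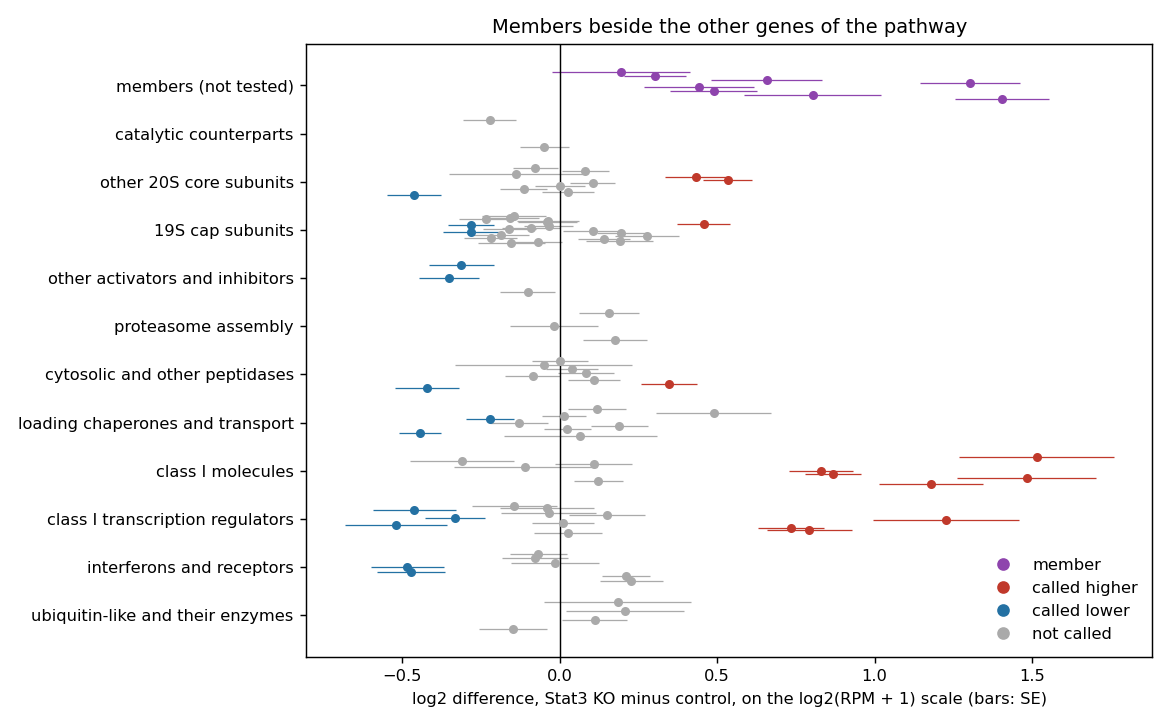
Log2 difference, Stat3 KO minus control, on the log2(RPM + 1) scale (x axis, bars are SE) for the 8 members in the top row and for the 87 tested genes of the pathway lists below, each point a gene, in purple for the members, which were not tested, and otherwise coloured by the call of limma. The members run from 0.19 to 1.40, the class I genes called higher from 0.83 to 1.51, and most proteasome subunits lie near 0. H2-Q6, at 1.51, and H2-Q7, at 1.48, entered the fit through the Stat3 KO libraries.

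Constitutive proteasome genes were called in both directions. Over its core, cap, activator, inhibitor and assembly genes, 3 of 38 tested were called higher (7.89%) and 5 lower (13.2%), shares near the 5.71% and 11.0% of all tested amplicons, with a median of -0.06. The core subunit gene Psmb4 rose to 329 ± 27.8 RPM in Stat3 KO, against 226 ± 7.57 RPM in controls (SD, n = 3 each, log2 difference 0.53, limma adjusted p = 6.77e-05). Psmb1, another core subunit, was higher by 0.43 (adjusted p = 0.00506, but 0.0618 with DESeq2, and a difference of 0.28 without Stat3 KO replicate 3) and the cap assembly factor Psmd5 by 0.46 (adjusted p = 7.12e-04).

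Lower genes of this group were the core subunit Psma1 (-0.46, adjusted p = 8.38e-04) and the cap subunits Psmd7 (-0.28, adjusted p = 0.0106) and Psmd12 (-0.28, adjusted p = 0.0319). The alternative activator Psme4, known for nuclear proteasomes, was at 82.4 ± 5.84 RPM in Stat3 KO and 106 ± 11.8 RPM in controls (-0.35, adjusted p = 0.0133), and the inhibitor Psmf1 was at -0.31 (adjusted p = 0.0425). The third activator, Psme3, did not pass, at -0.10 (adjusted p = 0.451). Psmd12 and Psmf1 lost their call with TMM factors, at adjusted p of 0.0942 and 0.0931. They also lost it in 5 of the 6 fits without 1 library, the exceptions being Stat3 KO replicate 3 for Psmd12 (0.0200) and Stat3 KO replicate 1 for Psmf1 (0.0316). Psme4 lost its call without Stat3 KO replicate 2 (0.0583), control replicate 2 (0.0858) or control replicate 3 (0.0506), and Psmd7 without control replicate 2 (0.0583).

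Peptidases and chaperones outside the set were mostly not called. Of 8 peptidases Dpp3 was higher (0.35, limma adjusted p = 0.00956), though not without Stat3 KO replicate 2 (0.0662) or control replicate 2 (0.0547), and Blmh, bleomycin hydrolase, was lower (-0.42, adjusted p = 0.00624). Of 9 loading chaperones and transporters none was higher and 2 were lower (22.2%), beside 5.71% and 11.0% of all tested amplicons. Calr, encoding calreticulin, which holds class I molecules during loading, fell to 975 ± 20.6 RPM in Stat3 KO, against 1328 ± 43.5 RPM in controls (SD, n = 3 each, -0.44, adjusted p = 1.00e-04). The chaperone gene Hspa5 was lower by a small margin with overlapping groups (-0.22, adjusted p = 0.0476) and was not called with TMM factors (0.147) or in 5 of the 6 fits without 1 library, the exception being control replicate 3 (0.0133). The tapasin relative Tapbpl had a log2 difference of 0.49 and did not pass (adjusted p = 0.0679).

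Of the MHC class I genes 5 heavy chain genes were called higher, while their light chain gene did not pass the test. Of 9 tested class I genes, B2m included, 5 were called higher (55.6%) and none lower, beside 5.71% and 11.0% of all tested amplicons. H2-K1 was at 59.4, 62.1 and 70.5 RPM in Stat3 KO, against 31.96, 37.2 and 37.5 RPM in controls (log2 difference 0.83 ± 0.10 SE, limma adjusted p = 8.60e-06). H2-D1 was at 120, 117 and 105 RPM in Stat3 KO, against 61.8, 64.4 and 59.5 RPM in controls (0.87 ± 0.09 SE, adjusted p = 4.78e-07). H2-Q4 averaged 13.3 RPM in Stat3 KO and 5.37 RPM in controls (adjusted p = 4.32e-05). H2-Q6 averaged 3.11 RPM in Stat3 KO and 0.411 RPM in controls, and H2-Q7 3.72 RPM in Stat3 KO and 0.686 RPM in controls. H2-Q6 and H2-Q7 lie under the 1 RPM limit in controls and entered the fit through the Stat3 KO libraries where they are high. Their calls support nothing, and the share of 55.6% includes them. The light chain gene B2m averaged 335 ± 25.5 RPM in Stat3 KO and 307 ± 17.9 RPM in controls and did not pass (0.12, adjusted p = 0.298). These heavy chain genes are close relatives, so reads may be shared among them.

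Regulators of the class I pathway were called both ways, with 3 higher (25%) and 3 lower (25%) of 12 tested. Over all tested amplicons the shares were 5.71% and 11.0%. Nlrc5, the transactivator of class I genes, had 48, 52 and 23 reads in Stat3 KO and 12, 16 and 12 reads in controls, or 4.04 ± 1.67 RPM and 1.07 ± 0.111 RPM (SD, n = 3 each, log2 difference 1.23, limma adjusted p = 0.00102). Irf1, an interferon-induced transcription factor, was higher by 0.74 (adjusted p = 5.18e-05) and its relative Irf8, found in myeloid cells, by 0.79 (adjusted p = 3.44e-04). Irf9 (-0.52, adjusted p = 0.0308), Rfxank (-0.46, adjusted p = 0.0183) and Nfya (-0.33, adjusted p = 0.0190) were lower. Each of these 3 lost its call without control replicate 1, at adjusted p of 0.105, 0.0527 and 0.0530, and without control replicate 2, at 0.101, 0.118 and 0.0801. Irf9 and Rfxank also lost it without Stat3 KO replicate 2 (0.148 and 0.0715), and Irf9 and Nfya without Stat3 KO replicate 3 (0.105 and 0.0654).

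Interferon genes were at or near no reads. Ifng had 1 read over the 3 Stat3 KO libraries and 0 over the 3 controls, and Ifnb1 had 0 and 2. A count of 0 allows up to 3 reads, which correspond to 0.224 to 0.329 RPM in a library, and such limits cover counting error only. Of 7 tested receptor and kinase genes none was called higher and 2 lower (28.6%), beside 5.71% and 11.0% of all tested amplicons. Ifnar1, the other type I receptor chain, was at 94.8, 103 and 93.7 RPM in Stat3 KO, against 91.9, 89.3 and 69.2 RPM in controls, and the kinase gene Jak1 at 222, 231 and 224 RPM in Stat3 KO, against 204.9, 183 and 197 RPM in controls. Neither overlapped and neither passed the test (log2 differences 0.23 and 0.21, limma adjusted p = 0.122 and 0.0624). The type I receptor chain gene Ifnar2 fell to 21.6 ± 1.35 RPM in Stat3 KO, against 30.7 ± 3.37 RPM in controls (log2 difference -0.48, limma adjusted p = 0.00639), and the kinase gene Jak2 was lower by 0.47 (adjusted p = 0.00460). Among 4 tested genes of ubiquitin-like modifiers and their enzymes none was called.

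Other genes around Tap1 were read for comparison. Of the 10 tested genes that were not members and lay within 200 kb of its start, 2 were called higher and none lower. Over all tested amplicons 5.71% were called higher and 11.0% lower. The median log2 difference of the 10 was 0.22. The called genes were H2-K1 and the class II gene H2-Aa (1.05, limma adjusted p = 8.38e-04), and H2-Aa is named after its values were seen. On the Psmb9 side the nearest tested genes were H2-DMb1 at -0.09 (adjusted p = 0.809), Brd2 at 0.23 (0.134) and H2-DMa at -0.05 (0.899). On the Tap2 side the class II genes H2-Ab1 and H2-Eb1 were at 0.58 and 0.47 and did not pass (0.0807 and 0.0975). In Brd2, H2-Ab1 and H2-Eb1 every Stat3 KO library lay above every control library, a pattern that 11.9% of all tested amplicons showed. The control mean of H2-Ab1, 0.903 RPM, is under the 1 RPM limit. It entered the fit through Stat3 KO, at 1.82 RPM, so its difference supports nothing. On the whole of chromosome 17, 39 of 557 tested genes outside the set were called higher and 54 lower. The 5 members there had a median of 0.80, the value of Psmb9, and the 3 elsewhere 0.44, the value of Psme1. Psmb9 rests on few reads, Psme1 had overlapping groups, and all members were picked on this contrast. No difference between the chromosomes is read from these medians.

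**Figure D4:**
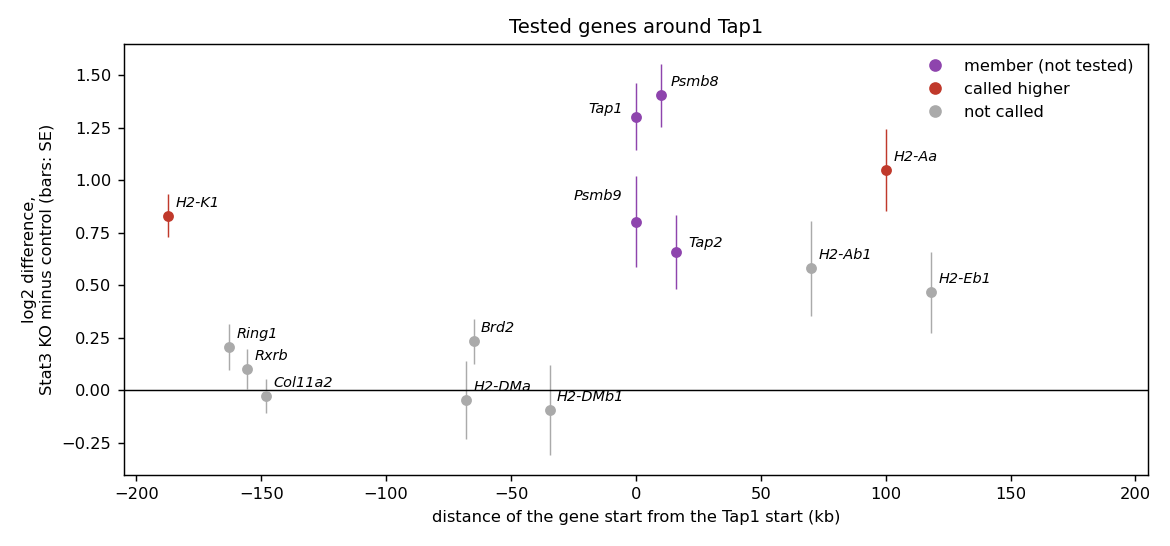
Log2 difference, Stat3 KO minus control (y axis, bars are SE), of each tested gene against the distance of its start from the Tap1 start in kb (x axis). The 4 members near 0 kb lie at 0.66 to 1.40, H2-Aa and H2-K1 at 1.05 and 0.83, and H2-DMa and H2-DMb1 close to 0.

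The profile of the set over the 6 libraries, the mean of the 8 genes each centred on its own log2 mean, was 0.35, 0.46 and 0.24 in Stat3 KO replicates 1 to 3 and -0.20, -0.29 and -0.55 in control replicates 1 to 3. The 5 other amplicons closest to it, among those averaging 10 RPM or more, were Rnf26, Mmp9, Pdgfb, Haus4 and Ice1. Their root mean square difference from it was 0.0843 to 0.108 log2 units, while the members' own differences were 0.137 to 0.372. Since the 5 were picked as the closest of all such amplicons, their smaller differences follow from that choice and support nothing. Mmp9, a matrix protease gene of osteoclasts, averaged 671 ± 22.3 RPM in Stat3 KO and 411 ± 13.0 RPM in controls, and Pdgfb, a growth factor gene, averaged 27.9 ± 3.40 RPM in Stat3 KO and 17.4 ± 1.28 RPM in controls (SD, n = 3 each).

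Markers of immune cells, which carry this machinery at high level, were read beside these results. Of 14 macrophage markers, all in the table, 13 were tested. Of these 5 were called higher (38.5%) and 1 lower (7.69%), beside 5.71% and 11.0% of all tested amplicons. The summed level of the 14 was 549 to 588 RPM in Stat3 KO and 443 to 468 RPM in control libraries. The difference in that sum was carried by Lyz2, at 230.3 RPM in Stat3 KO and 134 RPM in controls, and Cd68, at 125 RPM in Stat3 KO and 89.7 RPM in controls. The other markers called higher were less abundant. They were Cd14 (log2 difference 1.47, limma adjusted p = 5.92e-06), Itgam (0.41, adjusted p = 0.0265) and Adgre1 (0.49, adjusted p = 0.0412). Csf1r was lower, at 29.6 RPM in Stat3 KO and 39.9 RPM in controls (adjusted p = 0.0108), and Mrc1, C1qb and Fcgr1 had lower means in Stat3 KO without passing the test. Of 14 T and NK cell markers only Klrb1c was abundant enough to be tested, and it was higher (1.12, limma adjusted p = 0.00155). Their summed level was 7.45 to 9.82 RPM in Stat3 KO and 2.62 to 5.16 RPM in controls, and none was at 0 in all 6 libraries. The largest part of the Stat3 KO sum was Klrb1c, at 4.44 RPM in Stat3 KO and 1.53 RPM in controls. The T cell receptor genes Cd3e, Cd3d and Cd3g had at most 8, 2 and 9 reads in any Stat3 KO library and at most 1, 2 and 3 reads in any control library.

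Dendritic cell markers summed to 11.6 to 15.2 RPM in Stat3 KO and 11.3 to 13.5 RPM in controls, with Xcr1 at 0 in all 6 libraries. Most of that sum was Zbtb46, at 9.60 RPM in Stat3 KO and 9.82 RPM in controls. Below the test limit, Clec9a averaged 1.13 RPM in Stat3 KO and 0.412 RPM in controls, and Ccr7 0 and 0.289 RPM. B cell markers summed to 1.64 to 2.37 RPM in Stat3 KO and 2.41 to 2.96 RPM in controls. Itgax was called higher, but its control mean of 0.968 RPM is under the 1 RPM limit and it entered the fit through Stat3 KO, at 2.28 RPM. Endothelial markers summed to 652 to 684 RPM in Stat3 KO and 651 to 689 RPM in controls. Of 7 tested none was called higher and 2 lower (28.6%), beside 5.71% and 11.0% of all tested amplicons. Cdh5 was at 175 RPM in Stat3 KO and 217 RPM in controls (limma adjusted p = 0.0150). Tek was at 28.7 RPM in Stat3 KO and 41.1 RPM in controls (adjusted p = 0.00250). Pecam1 had a higher mean in Stat3 KO, at 300 RPM against 260 RPM in controls, and did not pass (adjusted p = 0.0657). Of 8 osteoclast markers 2 were called higher (25%) and 1 lower (12.5%), beside 5.71% and 11.0% of all tested amplicons. They summed to 1070 to 1096 RPM in Stat3 KO and 757 to 820 RPM in controls. Most of that difference came from Mmp9, given above. The other marker called higher was Atp6v0d2, at 62.0 RPM in Stat3 KO and 46.6 RPM in controls (limma adjusted p = 0.00953). Ctsk, Acp5 and Dcstamp did not pass (0.07, 0.14 and 0.10), and Calcr was lower, at 1.51 RPM in Stat3 KO and 4.49 RPM in controls (adjusted p = 5.26e-04). Of the osteoblast markers 6 of 8 and of the chondrocyte markers 4 of 7 tested were called lower, beside 11.0% of all tested amplicons. In bulk tissue fewer cells of a type and less RNA per cell cannot be told apart, and the part of these cells in the values of the set was not tested.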

How the data were processed

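Ion AmpliSeq mouse transcriptome libraries were made on an Ion Chef from Trizol-extracted RNA, per the labels' protocols. The authors deposited RPM values for 6 libraries. Aligner, counter and build: not given in the sources used here. Of the values above 0, 100% were whole reads within a tolerance of 0.1 read, which gave the depths. The labels do not say whether replicates were separate embryos, so p-values reflect differences among these samples that may be technical.

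Amplicons averaging 1 RPM or more were compared on log2(RPM + 1) with limma 3.58.1 (trend) in R 4.3.3, with 2-sided Benjamini-Hochberg adjustment over all 12846. The fit was tested on simulated data. Alternatives included edgeR 4.0.16 and DESeq2 1.42.0 on the recovered reads. Members, lists and markers were chosen with earlier results of these data known. Genes were named by rule: all members, fixed regulators, up to 4 called genes per list and direction, and the 5 amplicons closest in profile. Outside this rule were Psme2b, Tapbpl, Ifnar1, Jak1, the neighbours of Tap1 other than H2-K1 and, Mmp9 aside, the marker genes. Motifs were exact letter matches. Sequences are from RefSeq (GRCm38.p6), gene positions from GENCODE M21.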

Additional observations from a re-analysis of the deposited data

How the results depend on the processing

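The log2 differences of the 8 members stayed above 0 under every alternative run except that of Erap1, which was -0.16 without control replicate 3. Their median of 0.57 was 0.31 with 10 RPM added and 0.50 to 0.72 with 1 library left out. Of all amplicons tested, 733 were called higher and 1409 lower. The lower calls numbered 928 with TMM, 881 with median-of-ratios and 877 with quantile scaling, 922 with edgeR and 775 with DESeq2, beside 1041, 1079, 979, 1052 and 998 higher calls in the same settings. Without a filter there were 177 higher and 273 lower, and with 1 library left out 444 to 705 higher and 729 to 1314 lower. Of the pathway genes, 12 higher and 13 lower at first, 8 were lower with quantile scaling, 7 with DESeq2 and 3 without a filter, where 6 were higher, and 6 to 12 were lower with 1 library left out. Higher pathway genes then numbered 11 to 13. Deviations of libraries with the same replicate number correlated at 0.013, -0.019 and 0.107 over all tested amplicons. These values show no pairing by number, but they cannot exclude one that acts on some genes. With the replicate number as a block 836 amplicons were higher and 1626 lower, and 13 and 13 pathway genes. Over the named genes 80 results lost their call, 1 gained it, 490 kept it or stayed uncalled and 0 reversed. The causes were not tested. Amplicons with few reads, Psmb9 above all, are limited by depth.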
